A study of Homo sapiens with 9 samples.

Results

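Wild-type KG-1a cells, the untreated starting line of a PRMT2 knockout study, were profiled in 3 of the 9 RNA-seq libraries of the series. The 3 wild-type (WT) libraries were chosen by the genotype in the labels, and the other 6 came from knockout clone 1 and knockout clone 2 (3 each), which had been edited at PRMT2 with CRISPR/Cas9. PRMT2 encodes a protein arginine methyltransferase. All 3 groups were grown in RPMI 1640 with fetal bovine serum and received no drug, and total RNA was extracted with TRIzol. Each knockout group is 1 clone, and neither cloning of the WT cells nor separate cultures for the libraries of a group are recorded in the labels, so the spread given here may be technical.

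KG-1a is an established acute myeloid leukaemia line that carries the progenitor antigen CD34 and is a poorly differentiated variant of the line KG-1. In normal marrow, stem and progenitor cells express CD34 with factors such as GATA2, RUNX1, LYL1 and the HOXA genes. Granule proteases, monocyte receptors, globins, platelet proteins and antigen receptor complexes are switched on as cells commit to separate lineages. The genes of these programmes were read as on or off in the untreated line.

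Depth was 38282761, 40554236 and 32542001 counted read pairs in WT replicates 1 to 3, which were 27.9%, 29.3% and 29.6% of all pairs. Pairs that matched no annotated exon on the counted strand were 35.6% to 38.8% and unmapped pairs 26.2% to 30.4%. The former class does not separate introns, the opposite strand and sequence between genes. Levels are given per length as TPM, meaning counts per kilobase of merged exons scaled so that each library sums to 1e6, and as CPM, counts per 1e6 counted pairs, where a gene is compared with itself. A gene was taken as expressed at 1 TPM or more in each WT library and as at the floor when no WT library had over 3 counts, which is 0.074 to 0.0922 CPM. Genes in between are called trace. The order of genes by TPM depends on the length used. With canonical transcript lengths, a choice added after seeing the data, the level of 343 expressed listed genes was 0.643 to 5.24 times that by merged exons. It was over 1.5 times for 51. Levels with canonical lengths were scaled to 1e6 again, so a gene of unchanged length, such as RN7SL1 (103627 and 66666 TPM), stood at 0.643 times. The ratios and the levels with canonical lengths given below include this common factor. Values with ± are the mean and SD over the 3 WT libraries. Among expressed genes, low means under 10, moderate 10 to 100 and high 100 TPM or more. The median coefficient of variation between the 3 libraries was 8.04% for protein-coding genes between 1 and 10 TPM, 3.72% between 10 and 100 TPM and 2.68% between 100 and 1000 TPM. Pairs of WT libraries differed by more than counting error, with a chi-squared per degree of freedom of 3.14 to 4.29. As RNA was pooled from many cells, a low level in every cell and a high level in a few cannot be told apart. The targeted gene PRMT2 itself was at 39.4, 39.5 and 39.7 CPM in WT, against 20.5 to 21 CPM in clone 1 and 21 to 21.3 CPM in clone 2. The PRMT2 difference of -0.91 (SE 0.0458) on the log2 scale stayed under the fold minimum of the calls used below, with an adjusted p of 2.35e-20 in edgeR's quasi-likelihood test.

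Of 19942 protein-coding genes, 11144 (55.9%) were expressed in WT, with 1171 high, 7074 moderate and 2899 low. A further 2844 were trace and 5954 (29.9%) lay at the floor. Long non-coding RNAs were more often silent: 2862 of 16780 (17.1%) were expressed and 16 were high. The 100 most abundant genes took 17.9% ± 0.179 (SD, n = 3) of all counts, and between 1066 and 1086 genes held 50% of the counts of a library. Protein-coding genes took 93.6% of counts, the 88 cytosolic ribosomal protein genes 4.38% and the 13 mitochondrial mRNAs 3.22%.

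**Figure D1:**
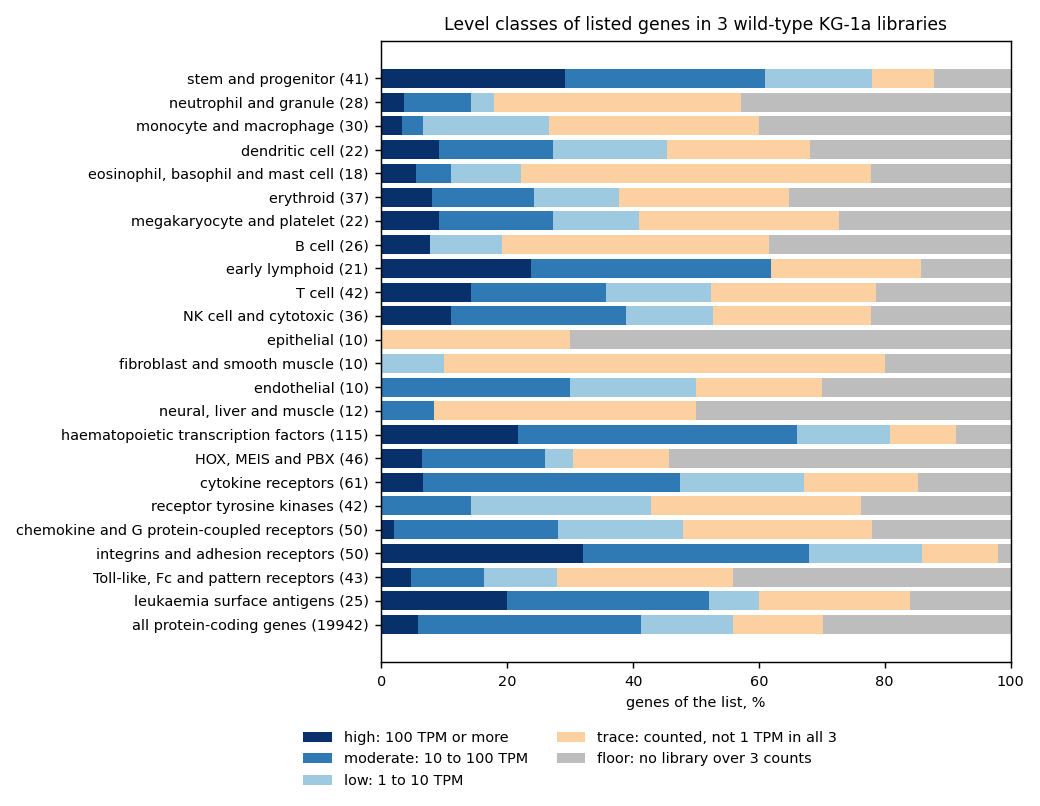
Share of each gene list (genes in brackets) in 5 level classes over the 3 wild-type libraries, with all protein-coding genes as the bottom bar. Stem and progenitor genes (32 of 41 expressed), haematopoietic transcription factors (93 of 115) and adhesion receptors (43 of 50) were mostly on, while granule, monocyte and B cell lists were mostly trace or floor and no epithelial gene was expressed.

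In these classes the 23 lists, 684 genes in all, differed widely around the 55.9% of all protein-coding genes. Stem and progenitor genes were expressed in 32 of 41 cases and early lymphoid genes in 13 of 21. T cell genes followed with 22 of 42 and cytotoxic or natural killer (NK) genes with 19 of 36. At the other end stood B cell genes with 5 of 26, neutrophil granule genes with 5 of 28, mast cell and granulocyte genes with 4 of 18 and monocyte genes with 8 of 30. Moving the threshold between 0.5 and 2 TPM, counting both strands or using canonical transcript lengths left the stem count between 30 and 33, the T cell count between 20 and 26 and the neutrophil count between 5 and 6.

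Promoter sequences of 5 genes that mark the extremes of this profile are shown for orientation: CD34 and HOXA9 for the stem programme, CD3D and NKG7 for the lymphoid genes that are on, and KLF1 for the erythroid genes at the floor. They are the 250 bases before the RefSeq start on GRCh38.p14, 5′ to 3′ on the gene's strand, with capitals marking exact matches to 7 short motifs on either strand. The box at which transcription is often positioned was searched as TATAAA, and the sequence bound by ETS factors was searched as CCGGAAG. The GC box bound by SP factors was searched as GGGCGG, and the motif named for its own letters was searched as CCAAT. For RUNX factors the letters searched were TGTGGT, for GATA factors they were AGATAA, and the palindromic E-box was searched as CACGTG. No motif of this set contains another. All 5 genes lie on the minus strand, at chr1:207911126-207911375, chr7:27165538-27165787, chr11:118342706-118342955, chr19:51372655-51372904 and chr19:12887202-12887451 in that order.
CD34: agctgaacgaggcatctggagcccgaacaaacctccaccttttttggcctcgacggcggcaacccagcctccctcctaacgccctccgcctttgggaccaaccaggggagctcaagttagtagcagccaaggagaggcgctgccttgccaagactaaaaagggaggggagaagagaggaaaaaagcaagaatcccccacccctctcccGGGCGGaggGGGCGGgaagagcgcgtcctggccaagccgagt
HOXA9: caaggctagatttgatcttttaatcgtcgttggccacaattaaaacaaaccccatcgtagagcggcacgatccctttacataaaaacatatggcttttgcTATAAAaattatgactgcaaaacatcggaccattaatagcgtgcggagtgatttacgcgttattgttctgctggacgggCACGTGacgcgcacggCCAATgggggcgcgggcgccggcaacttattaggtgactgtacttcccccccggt
CD3D: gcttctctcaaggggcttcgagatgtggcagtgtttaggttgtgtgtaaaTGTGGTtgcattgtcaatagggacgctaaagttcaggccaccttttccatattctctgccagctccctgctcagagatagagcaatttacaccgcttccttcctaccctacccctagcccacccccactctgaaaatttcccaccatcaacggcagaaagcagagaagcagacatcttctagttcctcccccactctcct
NKG7: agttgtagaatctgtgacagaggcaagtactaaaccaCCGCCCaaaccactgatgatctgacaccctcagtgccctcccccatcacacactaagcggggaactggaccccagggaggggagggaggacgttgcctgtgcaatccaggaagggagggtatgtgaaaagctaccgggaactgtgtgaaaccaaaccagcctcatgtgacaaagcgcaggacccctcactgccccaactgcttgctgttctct
KLF1: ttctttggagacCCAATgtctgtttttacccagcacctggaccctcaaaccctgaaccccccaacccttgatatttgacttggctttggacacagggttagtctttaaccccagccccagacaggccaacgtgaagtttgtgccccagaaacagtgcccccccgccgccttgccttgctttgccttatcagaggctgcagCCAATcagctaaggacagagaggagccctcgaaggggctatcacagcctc
The CD34 window held 2 GC boxes and 14 CpG dinucleotides, and the HOXA9 window a TATA box, an E-box, a CCAAT and 20 CpG. CD3D (4 CpG) held 1 RUNX match and NKG7 (5 CpG) 1 GC box on the opposite strand. KLF1 (4 CpG) held 2 CCAAT matches and no match to AGATAA. CD3D and NKG7 were thus high in WT with nearly as few CpG as the silent KLF1. The KLF1 window does hold TTATCA, which reads TGATAA on the opposite strand. This is a form with the letters GATA that the search for AGATAA did not cover, so a GATA site is not excluded there.

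Across the 15185 protein-coding genes with a promoter in the RefSeq table, the 300-base windows (250 before and 50 after the start) of expressed and silent genes differed in composition. Windows of the 9099 expressed genes had a median of 26 CpG, against 8 for the 4049 genes at the floor and 22 over all. A GC box was in 69.6% of expressed and 38.3% of floor windows (59.3% of all), and the ETS sequence in 21.0% against 4.03% (14.4% of all). The order was the other way for the TATA box, in 5.86% of expressed and 17.8% of floor windows (9.58% of all), and for the GATA sequence, in 4.90% against 12.5% (7.47% of all). The RUNX sequence was in 9.35% against 13.4% (10.9% of all), the E-box in 10.3% against 6.15% (8.90% of all), and CCAAT in 37.8% against 36.3% (36.6% of all). In the 937 windows of high genes the TATA box (10.8%) and the RUNX sequence (11.4%) were above their shares over all, unlike in expressed windows. The GC box (69.2%), the ETS sequence (19.2%), the GATA sequence (4.16%), the E-box (11.4%) and CCAAT (43.3%) stayed on the same side as in expressed windows. These are letter matches, not sites of binding.

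The most abundant RNAs by length-scaled level were small structural RNAs and mitochondrial messages. RN7SL1, the RNA of the signal recognition particle, stood first at 100332, 105444 and 105106 TPM. Of the 25 genes of highest level, 11 were mitochondrial mRNAs, led by MT-CO1, a subunit of cytochrome c oxidase, at 26305, 25635 and 25786 TPM. A total of 3 were replication histones, such as H2BC12 at 4746 ± 454 TPM (SD, n = 3), although such transcripts lack the poly(A) tail of other mRNAs. The RN7SL4P, RN7SKP80 and MTND1P23 entries are near-identical copies of 7SL, 7SK and mitochondrial sequence, and how reads were split among such copies is uncertain. The remaining nuclear mRNAs of the 25 were GAPDH (5799 TPM), ACTB (4872 TPM), FTL (3585 TPM), EEF2 (3404 TPM) and TMSB10 (3196 TPM), which serve glycolysis, the cytoskeleton, iron storage, translation and actin binding. This set rests on merged exon lengths. With canonical lengths ACTB (7619 TPM) was above GAPDH (6956 TPM), and the elongation factor gene EEF1A1 (3927 TPM) was above EEF2 (2788 TPM), FTL (2306 TPM) and TMSB10 (2056 TPM).

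Some genes of narrower expression were abundant as well, and they were chosen after their values were seen. CTSW, a protease of cytotoxic lymphocytes, was at 1399.6, 1256 and 1359 TPM, rank 53 of all protein-coding genes. ITM2A, a membrane protein of thymocytes and T cells, was at 1267 ± 21.2 TPM and IL32, a cytokine made by T and NK cells, at 605 ± 19.3 TPM. PRSS57, a serine protease of myeloid progenitors, stood at 711 ± 47.8 TPM, unlike the other granule proteases described below. CDK6, the G1 kinase of haematopoietic progenitors, was at 587 ± 15.9 TPM and its partner cyclin gene CCND2 at 493 ± 9.15 TPM. The scavenger receptor gene STAB1 was at 520.0 ± 35.2 TPM and the cytochrome P450 gene CYP1B1 at 962 ± 15.2 TPM.

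Among long non-coding RNAs, MALAT1, a nuclear RNA of speckles, was far ahead at 4358, 4528 and 4165 TPM, and it took more counts than any other gene at 13047, 13502 and 12580.3 CPM. Genes without a symbol, ENSG00000227706 at 583 ± 10.1 TPM and ENSG00000226707 at 441 ± 26.8 TPM, came next. FAM30A, a transcript of the immunoglobulin heavy chain region described in leukaemic stem cells, followed at 382, 377 and 347 TPM, or at a mean of 1509 TPM with its canonical length. NORAD (289 TPM), NEAT1 (265 TPM), the scaffold of paraspeckles, and the snoRNA hosts SNHG1 (239 TPM) and SNHG3 (212 TPM) were within 1.5 times of each other by merged lengths, but SNHG1 was at 526 TPM and NEAT1 at 171 TPM with canonical lengths.

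Of the lineage lists, the stem and progenitor list had the largest share expressed, with 12 high, 13 moderate and 7 low genes among 41. Such shares depend on which genes were listed, and the lists were chosen with earlier results of these data known. CD34, the sialomucin that marks progenitors (chromosome 1, 207880972 to 207911402 on GRCh38), was at 242, 235 and 233 TPM, rank 349 of protein-coding genes. CD164, another sialomucin, was at 294, 295 and 304 TPM and the homeobox gene HOXA9 at 276, 270.3 and 277 TPM. The 3 libraries lay close together for each of these genes. MYB, a factor needed for progenitor growth, was at 175 ± 1.74 TPM, and EGFL7, a secreted protein that hosts miR-126, at 159 ± 9.25 TPM.

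The transcription factors known as the stem cell heptad were unequal in WT. LYL1 (155 ± 7.01 TPM), GATA2 (143 ± 6.19 TPM), FLI1 (141 ± 1.18 TPM) and RUNX1 (123 ± 0.796 TPM) were high. LMO2 (68.7 ± 1.68 TPM) and ERG (42.7 ± 0.465 TPM) were moderate. TAL1, like LYL1 a class II helix-loop-helix factor, was low at 3.96, 4.57 and 4.56 TPM. LYL1 was thus far above TAL1 in each library.

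Other receptor genes of stem cells differed in level. NPR3, a natriuretic peptide receptor gene of the stem cell list, was moderate at 23.1 ± 1.51 TPM. KIT, the receptor for stem cell factor, was low at 1.6, 1.71 and 2.38 TPM (199, 224 and 254 counts). FLT3, the receptor often mutated in this leukaemia, had 1, 4 and 1 counts, and PROM1, which encodes CD133, was trace at 0.72, 0.926 and 0.754 TPM. THY1, AVP, MECOM, MEIS1 and MYCT1 were at the floor. The stem cell factor HLF reached 1.14, 1.03 and 1.41 TPM, just over the threshold.

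**Figure D2:**
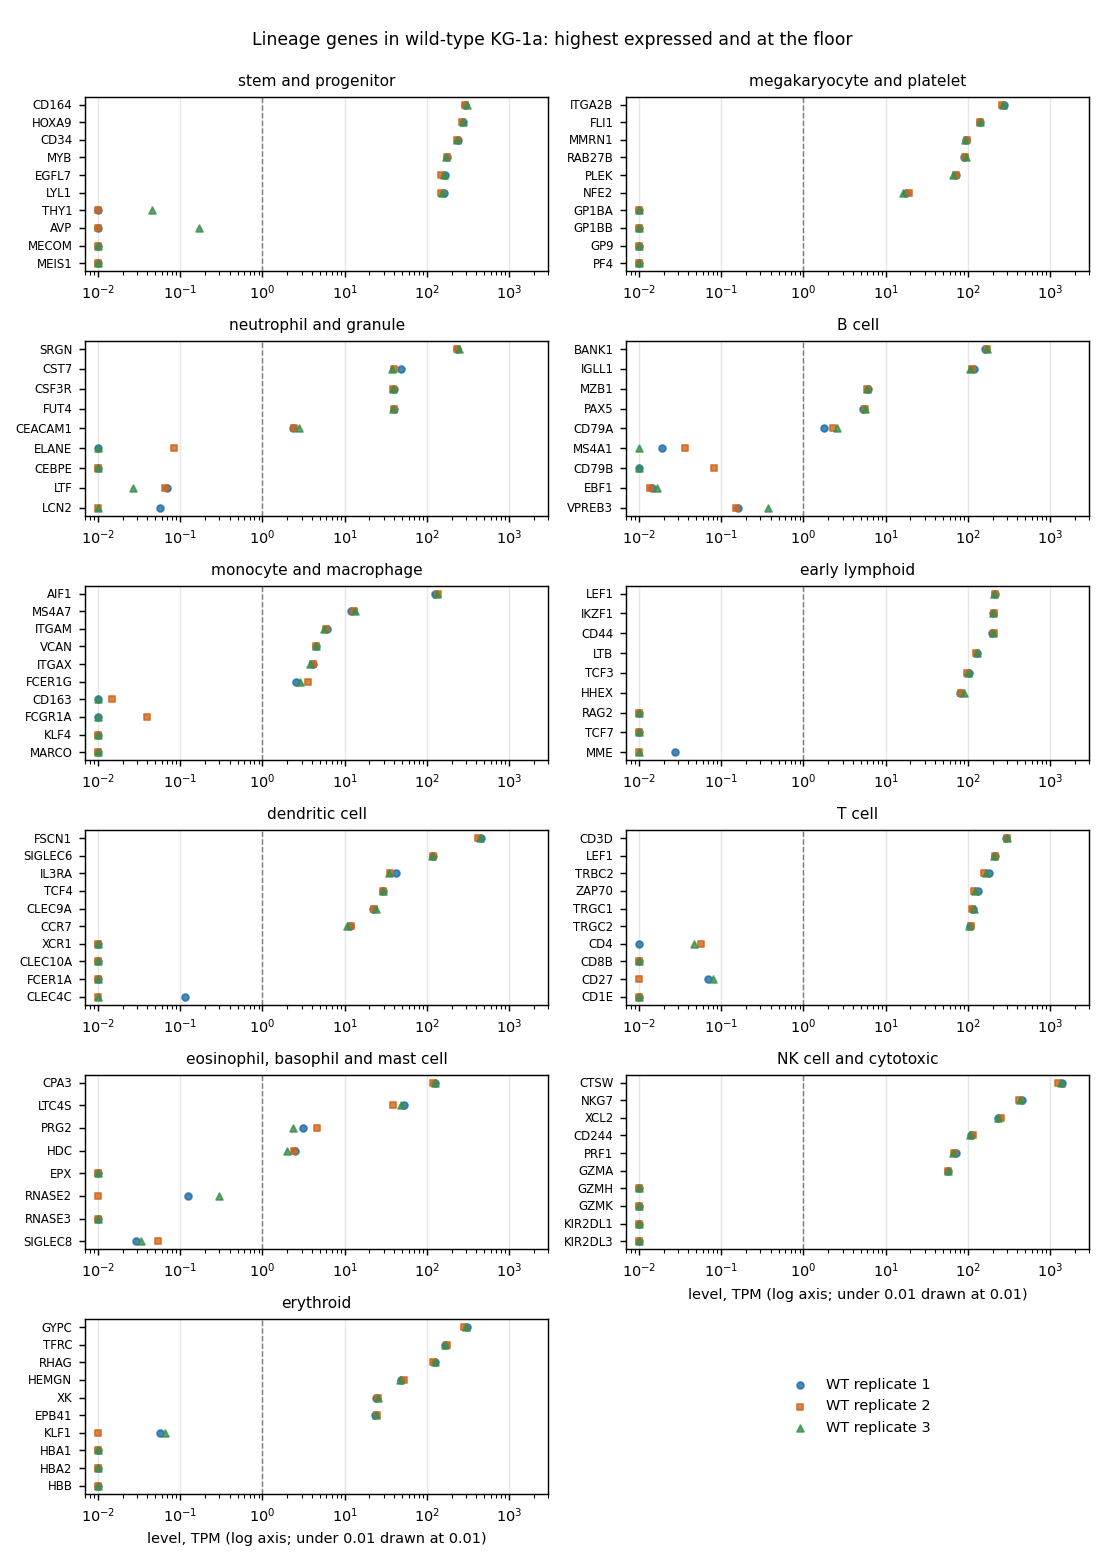
Levels (TPM, log axis) in each WT library of up to 6 highest expressed genes and up to 4 genes at the floor for 11 lineage lists; the dashed line marks 1 TPM. The 3 libraries coincide for most expressed genes, and in each list genes of 1 lineage are split between high and silent, as for ITGA2B and PF4 or CD3D and CD8B.

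HOX genes encode positional homeobox factors, and the HOXA cluster is the one most tied to leukaemia. In WT, 10 of 11 HOXA genes were expressed, against 1 of 10 HOXB genes, 0 of 9 HOXC genes and 0 of 9 HOXD genes. HOXA9 led at 275 ± 3.67 TPM, followed by HOXA5 (119 ± 7.36 TPM), HOXA7 (90 ± 1.53 TPM), HOXA6 (82.4 ± 0.498 TPM) and HOXA10 (76.5 ± 1.34 TPM). HOXA11 was low at 2.14 ± 0.424 TPM, and HOXA13 was at the floor. HOXB2 was alone in its cluster at 104, 104 and 107 TPM, while its neighbour HOXB3 was trace (0.135, 0.186 and 0.257 TPM). Of the TALE partners that bind DNA with HOX proteins, MEIS1 and PBX4 were at the floor, and MEIS2 (25.9 ± 0.788 TPM), PBX2 (48.1 ± 2.65 TPM) and PBX3 (28.6 ± 0.522 TPM) were moderate. The 10 HOXA genes and HOXB2 were over 1 TPM in each WT library.

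**Figure D3:**
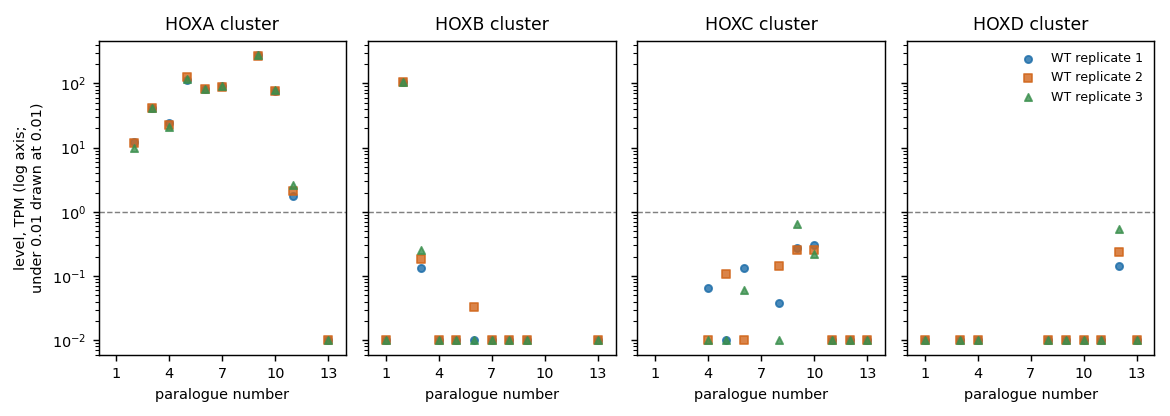
Level (TPM, log axis) of the HOX genes plotted, by paralogue number in the 4 clusters, 1 symbol per WT library, with the dashed line at 1 TPM. HOXA2 to HOXA11 and HOXB2 lie above the line in all 3 libraries, and every HOXC and HOXD gene lies below it.

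Neutrophil and granule genes were expressed in 5 of 28 cases. MPO, the myeloperoxidase gene that defines the myeloid blasts of the labelled leukaemia, had 3, 13 and 5 counts (0.0617, 0.253 and 0.12 TPM), and ELANE, CEBPE, LTF and LCN2 were at the floor. AZU1 (0.283 TPM), PRTN3 (0.289 TPM), CTSG (0.574 TPM) and LYZ (0.4 TPM) were trace. Of the 5 expressed members, SRGN, the proteoglycan core that packs granules in many blood cells, was high at 232, 234 and 246 TPM. CST7 (42 ± 5.4 TPM), an inhibitor of cysteine proteases also made by NK cells, and FUT4 (39.2 ± 0.542 TPM), which makes the CD15 antigen, were moderate. The G-CSF receptor gene CSF3R was moderate too, at 40.3, 39.1 and 39.1 TPM, or at a mean of 89.5 TPM with its canonical length.

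The monocyte and macrophage list had 8 of 30 genes expressed, of which 6 were low. AIF1, an actin-binding protein, was the exception at 125, 138 and 134 TPM, followed by MS4A7 at 12.8 ± 0.684 TPM. ITGAM, the alpha chain of Mac-1, was low at 5.87 ± 0.214 TPM, and CD14 (0.442, 0.681 and 0.516 TPM), CSF1R (0.177, 0.251 and 0.371 TPM) and CD33 (0.213, 0.246 and 0.373 TPM) were trace. SPI1, which encodes the master myeloid factor PU.1, was low at 1.29, 2.45 and 2.19 TPM (29, 58 and 42 counts). CD163, FCGR1A and KLF4 were at the floor, as were IRF8 and the adaptor gene TYROBP. CEBPA, the other master factor of granulocytes, was moderate at 56, 55.1 and 58.8 TPM, so that CEBPA and SPI1 differed by more than the spread between libraries.

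Of the dendritic genes, 10 of 22 were expressed, and of the eosinophil, basophil and mast cell genes 4 of 18. FSCN1, the actin bundler of mature dendritic cells, was at 450.0, 419 and 447 TPM and SIGLEC6, a lectin of mast cells and a dendritic subset, at 119, 117 and 114 TPM. IL3RA (37.4 ± 3.97 TPM), the IL-3 receptor alpha chain, and CLEC9A (22.9 ± 1.06 TPM), a receptor for dead cells on type 1 dendritic cells, were moderate, whereas XCR1, CLEC10A, FCER1A and CLEC4C were at the floor. CPA3, the mast cell carboxypeptidase, was high at 125, 120.4 and 124 TPM and LTC4S, which makes leukotriene C4, was at 52.4, 38.4 and 48.3 TPM. The mast cell tryptase genes TPSAB1 (0.719 TPM) and TPSB2 (0.386 TPM), which share near-identical sequence, were trace, and the eosinophil genes EPX, RNASE2 and RNASE3 were at the floor.

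Of 37 erythroid genes, 14 were expressed (3 high, 6 moderate and 5 low), 10 were trace and 13 were at the floor. GYPC, which encodes glycophorin C, was at 304, 286 and 301 TPM, the transferrin receptor gene TFRC at 165, 173 and 167 TPM and RHAG, the Rh-associated glycoprotein, at 125, 119 and 126 TPM. HEMGN, a nuclear protein of erythroid progenitors, was moderate at 49.7 ± 2.65 TPM, as were XK (25.1 ± 0.608 TPM) and EPB41 (24.1 ± 0.513 TPM). The membrane protein gene GYPE (3.42 ± 0.421 TPM) and the receptor genes EPOR (1.87 ± 0.254 TPM) and TFR2 (1.25 ± 0.137 TPM) were low. The erythroid factor gene KLF1, the globin genes HBA1, HBA2 and HBB and the chaperone gene AHSP were at the floor, and the haem synthesis gene ALAS2 was trace at 0.0445, 0.126 and 0.207 TPM. GATA1, the main erythroid factor, had 5, 10 and 6 counts (0.293, 0.556 and 0.41 TPM), while GATA2 was high in every library. Another factor of both lineages, GFI1B, was high at 104 ± 3.13 TPM.

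Of 22 megakaryocyte and platelet genes, 9 were expressed and 6 were at the floor. ITGA2B, the integrin alpha IIb chain that is also CD41, was at 276, 259.9 and 264 TPM, and its partner ITGB3 was low at 4.92, 5.16 and 5.28 TPM. MMRN1 (95 ± 2.94 TPM), a platelet protein of alpha granules, RAB27B (92.3 ± 2.05 TPM), a secretion GTPase, and PLEK (70.5 ± 3.42 TPM) were moderate. GP1BA, GP1BB, GP9 and PF4 were at the floor.

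Early lymphoid genes were expressed in 13 of 21 cases, none of them at a low level. LEF1, a WNT-responsive factor of lymphoid precursors, was at 211, 213 and 208 TPM and IKZF1, which encodes Ikaros, at 201, 208 and 202 TPM. CD44 (203 ± 5.8 TPM), LTB (128 ± 2.04 TPM), TCF3 (100.1 ± 2.88 TPM) and HHEX (84.2 ± 3.88 TPM) followed. DNTT, the terminal transferase of rearranging lymphocytes, was moderate at 14.5, 14.4 and 14.5 TPM, whereas RAG1 was trace (0.361, 0.203 and 0.342 TPM) and RAG2 at the floor. LEF1 and its relative TCF7 lay at opposite ends, since TCF7 and MME, which encodes CD10, were at the floor.

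B cell genes were expressed in 5 of 26 cases. BANK1, a scaffold of B cell receptor signalling, was at 163, 171 and 170.1 TPM and IGLL1, the surrogate light chain, at 119.5, 113 and 106 TPM. PAX5, the B lineage factor, was low at 5.29, 5.54 and 5.53 TPM and CD79A, a signalling chain of the B cell receptor, low at 1.76, 2.31 and 2.53 TPM. MS4A1, CD79B, EBF1 and VPREB3 were at the floor. At 0.5 TPM the number of expressed genes in the list was 8.

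T cell genes formed the longest lymphoid list, with 6 high and 9 moderate among 42. The share expressed, 52.4%, was near that of cytotoxic genes (52.8%) and under those of early lymphoid (61.9%) and all protein-coding genes (55.9%). The delta chain gene CD3D of the CD3 complex was at 293, 295 and 303 TPM, CD3E at 69.4 ± 1.3 TPM, CD247, the zeta chain, at 10.4 ± 0.415 TPM and CD3G at 2.9 ± 0.569 TPM, in that order. With canonical lengths the order was kept and the values were 929 TPM, 87.2 TPM, 39.2 TPM and 2.66 TPM, so that CD3D and CD247 were over 3 times higher than by merged exons. ZAP70, the kinase that docks on them, was at 132, 117 and 122 TPM, while LCK was low at 4.04, 4.53 and 4.71 TPM and the adaptor LAT trace at 0.522, 0.342 and 0.468 TPM. CD7, an early T lineage antigen also found on leukaemic blasts, was at 81.8, 67.5 and 77.9 TPM. The co-receptor genes CD4 and CD8B, with CD27 and CD1E, were at the floor, and CD5 (0.0686 TPM) and CD8A (0.481 TPM) were trace. GATA3, the T cell factor, was moderate at 51.6, 48.5 and 47.9 TPM and BCL11B trace at 0.438, 0.395 and 0.709 TPM.

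Cytotoxic genes included the highest lineage gene of all lists. Beside CTSW, the granule membrane protein gene NKG7 was at 458, 415 and 435 TPM and the chemokine gene XCL2, close in sequence to XCL1 (19.3 TPM), at 233, 254 and 235 TPM. The receptor gene CD244 was at 111 ± 5.49 TPM, the perforin gene PRF1 at 72.5, 66.9 and 65 TPM and the granzyme gene GZMA at 57.2, 57.9 and 56.9 TPM. GZMB did not reach 1 TPM in every library (1.81, 1.23 and 0.98 TPM), GNLY was trace (0.121 TPM), and GZMH, GZMK, KIR2DL1 and KIR2DL3 were at the floor. TBX21, the factor of type 1 and cytotoxic cells, was at 9.78, 9.7 and 10.6 TPM and EOMES at 3.71, 3.4 and 3.66 TPM. The summed level of the 36 genes was 2323 to 2491 TPM in WT.

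Markers of other tissues, read as a check of the label of a blood line, were expressed in 7 of 42 cases. None of 10 epithelial genes was expressed, and 7, such as EPCAM and CDH1, were at the floor. Of 10 fibroblast and smooth muscle genes, TAGLN was expressed at 3.52 ± 0.232 TPM, and COL1A1, COL1A2 and PDGFRB were trace. The endothelial list had 5 of 10 expressed, namely EMCN (68.4 ± 1.17 TPM), ESAM (23.7 ± 0.575 TPM), PECAM1 (11.8 ± 0.51 TPM), VWF (2.16 ± 0.077 TPM) and TIE1 (2.02 ± 0.242 TPM), of which the stem cell list also holds EMCN and ESAM, while CDH5, CLDN5 and ROBO4 were at the floor. TTR, the liver transport protein gene, was the single member expressed among 12 neural, liver and muscle genes, at 33.7, 36.6 and 39.7 TPM. Counted without regard to strand, TTR had 1.94 times and TAGLN 3.07 times as many pairs, as reads on the opposite strand overlap them. Over all 343 expressed list members, 10 had over 1.5 times as many pairs in that counting, P2RY14 (17.3 times), GPR18 (12.3 times) and IRF7 (2.81 times) among them.

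Of 115 haematopoietic transcription factor genes, 93 were expressed and 25 were high. The AP-1 factor gene JUND led at 593, 506 and 594 TPM, followed by MYC at 415, 383 and 407 TPM and the stress factor gene ATF4 at 337 ± 6.46 TPM. With canonical lengths MYC (424 TPM) was above JUND (363 TPM). Immediate early genes were low by comparison, at 4.38 ± 0.437 TPM for FOS, 6.57 ± 1.06 TPM for JUN and 2.13 ± 0.13 TPM for EGR1. TOX, a factor of developing T and innate lymphoid cells, was at 189 ± 4.47 TPM, and ZBTB16, which encodes PLZF, at 147 ± 7 TPM.

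Members of several factor families were used unequally. In the RUNX family, RUNX3 (172 ± 3.46 TPM) and RUNX1 (123 ± 0.796 TPM) were high and RUNX2 (28.2 ± 1.09 TPM) moderate, and with canonical lengths RUNX1 (206 TPM) was above RUNX3 (128 TPM). In the GATA family, GATA2 (143 ± 6.19 TPM) was ahead of GATA3 (49.3 ± 1.98 TPM), and GATA1 was trace. Among C/EBP genes, CEBPA (56.6 ± 1.92 TPM) and CEBPB (32.3 ± 1.52 TPM) were moderate, and CEBPD and CEBPE were at the floor. Among Ikaros genes, IKZF1 was high, IKZF3 trace (0.883 TPM) and IKZF2 trace (0.0352 TPM). Of the growth factor independence genes, GFI1B (104 TPM) exceeded GFI1 (22.3 TPM) in every library. WT1, a leukaemia-associated zinc finger gene, was moderate at 34.4, 35.4 and 33.1 TPM.

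**Figure D4:**
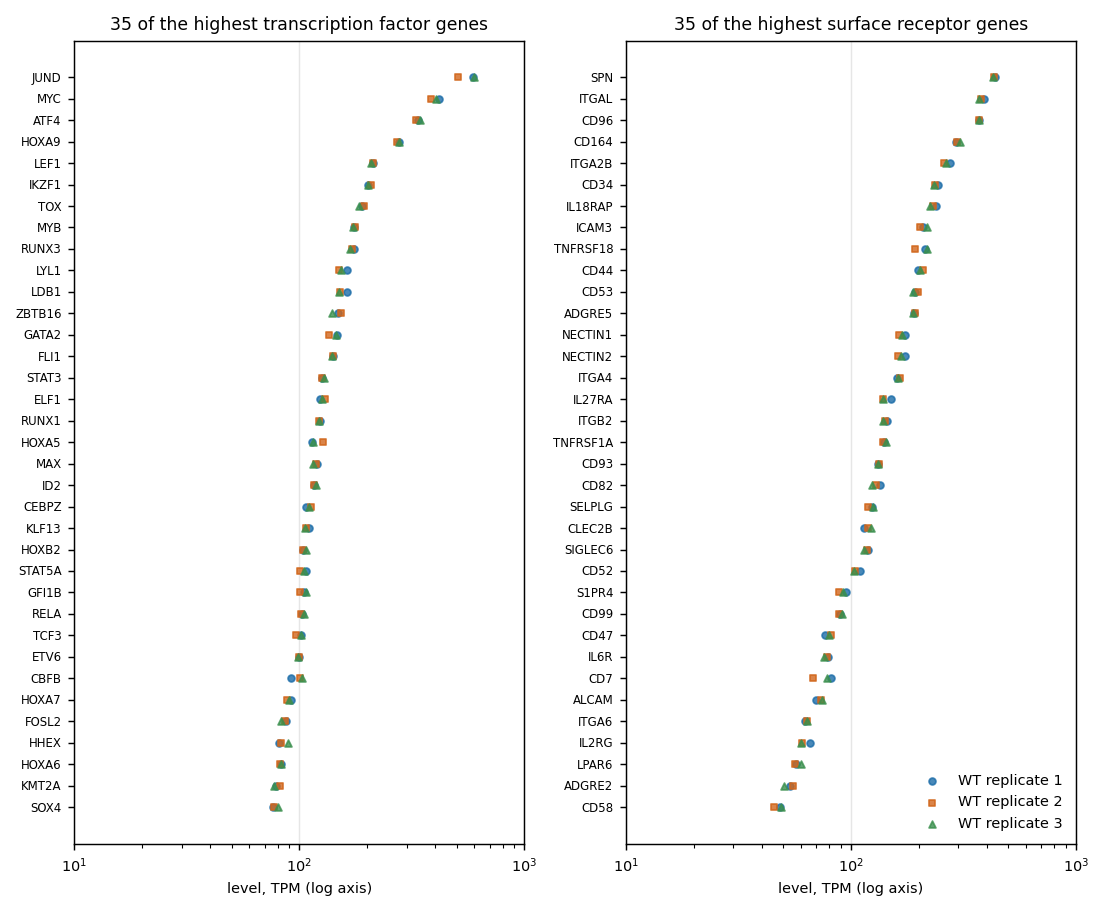
Levels (TPM, log axis) of 35 of the highest listed transcription factor genes (left) and surface receptor genes (right) in each WT library. JUND, MYC and ATF4 lead on the left and SPN, ITGAL and CD96 on the right, and neighbouring genes in either order often overlap in their libraries.

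Adhesion receptors were the most complete surface list, with 43 of 50 expressed and 16 high. SPN, the leukocyte sialomucin CD43, was at 437, 431 and 428 TPM, ITGAL, the alpha chain of LFA-1, at 390.1, 377 and 369 TPM and CD96, a receptor for nectin-like ligands on T cells, NK cells and leukaemic stem cells, at 369, 371 and 371 TPM. With canonical lengths ITGAL (469 TPM) was above SPN (283 TPM). The beta chain gene ITGB2 was at 141 ± 2.64 TPM, and ITGA4, an alpha chain of VLA-4, at 162 ± 2.67 TPM with its partner ITGB1 at 33.5 ± 1.67 TPM. The selectin ligand gene SELPLG was at 123 ± 3.49 TPM. ITGA1 was at the floor.

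Cytokine receptor genes were expressed in 41 of 61 cases, mostly at moderate levels. IL18RAP, a chain of the IL-18 receptor, was highest at 238, 231 and 225 TPM, with its partner IL18R1 at 13.9 ± 0.243 TPM. TNFRSF18 (208 ± 12.7 TPM), which encodes GITR, IL27RA (143 ± 6.21 TPM) and TNFRSF1A (141 ± 2.53 TPM) were also high. Of the IL-2 receptor chains, IL2RG was moderate (62 ± 3.29 TPM), IL2RB low (7.1 ± 0.203 TPM) and IL2RA at the floor. The IL-3 receptor was similarly uneven, since IL3RA was at 42, 35.8 and 34.5 TPM and the shared signalling chain CSF2RB had 8, 3 and 1 counts (0.146, 0.0519 and 0.0213 TPM). IL13RA1, IL23R and LIFR were at the floor.

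Receptor tyrosine kinase genes were few and never high. Of 42 genes, 18 were expressed and 6 were moderate, with RYK (27.2 ± 1.24 TPM), a WNT receptor, FGFR1 (26.8 ± 0.701 TPM), EPHA4 (17.7 ± 0.723 TPM), EPHB6 (13.7 ± 0.426 TPM), FLT1 (13.4 ± 0.312 TPM) and INSR (11 ± 0.541 TPM) in that order. RYK and FGFR1 did not differ beyond their spread, nor did EPHB6 and FLT1. EGFR, FGFR3, NTRK2 and NTRK3 were at the floor.

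Chemokine and G protein-coupled receptor genes were expressed in 24 of 50 cases. ADGRE5, which encodes CD97, was the single high gene at 191, 193 and 188 TPM, followed by the sphingosine phosphate receptor gene S1PR4 at 91.8 ± 3.23 TPM, LPAR6 at 57.7 ± 1.81 TPM and ADGRE2 at 53.1 ± 2.53 TPM. The T cell chemokine receptor gene CXCR3 was at 38.9, 33 and 41 TPM and CCR4 at 26.9 ± 1.64 TPM. CXCR4, the receptor that holds stem cells in the marrow, was trace at 0.596, 0.773 and 1.17 TPM, and CXCR1, CCR6, CCR8 and CCR9 were at the floor.

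Innate receptors were mostly silent, with 12 of 43 expressed and 19 at the floor, TLR2, TLR4, TLR7 and TLR8 among the latter. CD93, a receptor of progenitors and endothelium, was at 131, 133 and 132 TPM, the lectin gene CLEC2B at 119 ± 4.34 TPM and CLEC4D at 28.6 ± 2.18 TPM. TLR1 (15.5 ± 0.337 TPM) and TLR6 (11 ± 0.918 TPM), whose products pair with the product of TLR2, were moderate although TLR2 was at the floor.

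Of 25 surface antigens targeted in leukaemia, 15 were expressed. CD96, CD44, CD93, SIGLEC6 and CD52 were high, and CD99 (89.8 ± 1.39 TPM), CD47 (79.1 ± 2.55 TPM), CD7 and IL3RA moderate. The low members were CLEC12A (2.71, 2.54 and 2.8 TPM) and KIT. CD33, CD38 (0.677, 0.478 and 0.712 TPM) and FLT3 were trace, and LILRB4, FOLR2, CD276 and MSLN were at the floor.

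The WT levels were then set beside those of the knockout clones, as the mean of both clones against WT. Of 20655 genes tested with edgeR's quasi-likelihood test, 1349 (6.53%) were called at an adjusted p under 0.05 with an absolute log2 difference of at least 1, 935 (4.53%) lower and 414 (2.00%) higher in the clones. Clone 1 replicate 1 stood apart with 13.3% of its pairs mapped to several places, and without it 1465 genes were called. Leaving out any other single knockout library gave 1425 to 1459 calls, so the rise was not particular to that library. Of the 684 listed genes, 435 passed the filter on low counts, and 77 were called lower and 21 higher. A listed gene that passed because it was on in WT could mainly fall, so these counts describe the genes and are not support for a direction.

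T cell and cytotoxic genes were those most often lower. In the T cell list, 29 of 42 genes were tested and 14 (48.3%) were called, each of them lower. Over all tested genes 4.53% were called lower. The median log2 difference was -0.73 in the T cell list and 0.00186 for all tested genes. The cytotoxic list had 21 of 36 tested and 9 (42.9%) called, again lower, with a median of -0.83. Of the tested genes, 22 in the T cell list and 19 in the cytotoxic list were expressed in WT. The limit given above for the counts thus holds for these medians too, and they are not support for a direction. At CTSW all WT libraries (726, 649 and 712 CPM) lay above clone 1 (120.2 to 132 CPM) and clone 2 (196 to 198 CPM), with a log2 difference of -2.14 (SE 0.0376) and an adjusted p of 1.10e-25 in edgeR. THEMIS, a regulator of T cell receptor signalling, fell from 36, 37.8 and 32.8 CPM in WT to 0.179 to 0.189 CPM and 0.487 to 0.821 CPM. CD3E and GZMA were also called lower, by log2 differences of -1.69 (SE 0.0474) and -2.87 (SE 0.101). As these are bulk samples, fewer cells with such transcripts and less RNA per cell cannot be told apart.

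Stem cell genes moved in both directions, with 3 called lower and 4 higher of 35 tested among 41. These calls were 20.0% of those tested, against 6.53% of all tested genes (4.53% lower and 2.00% higher). NPR3 fell from 67.5, 69.4 and 61.9 CPM to 1.51 to 1.84 CPM and 2.04 to 2.57 CPM with a log2 difference of -5.06 (SE 0.0651) and an adjusted p of 4.17e-41 in edgeR. TAL1 rose from 6.48, 7.45 and 7.53 CPM to 68.2 to 76.3 CPM and 66.4 to 67.1 CPM with a log2 difference of 3.29 (SE 0.0538) and an adjusted p of 1.59e-37 in edgeR. ESAM, an adhesion molecule of stem cells and endothelium, rose by 2.14 (SE 0.0392) on the log2 scale. The WT libraries did not overlap the knockout libraries for these 3 genes, nor for any of the 33 genes named as called. Those were picked for large differences, so the lack of overlap adds no support, and its share over all tested genes was not computed. CD34 itself was at 641, 619 and 622 CPM in WT, 723 to 748 CPM in clone 1 and 744 to 787 CPM in clone 2, and its log2 difference of 0.26 (SE 0.0334) was not called.

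DNTT was nearly lost from the clones. It was at 8.12, 8.04 and 8.24 CPM in WT, and clone 1 had 0 counts in 91890066 pairs, at least 249-fold lower against a floor of 3 counts over the group, while clone 2 had 18 counts. VCAN, SIGLEC6, THBS1, ITGB3 and ROR1 were called lower as well. In a fit that pooled the clones as 1 group the calls of these 5 genes ended, with values of -1.46, -1.10, -1.26, -1.07 and -0.97 on the log2 scale, and THBS1 was at -0.55 when counted without regard to strand.

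**Figure D5:**
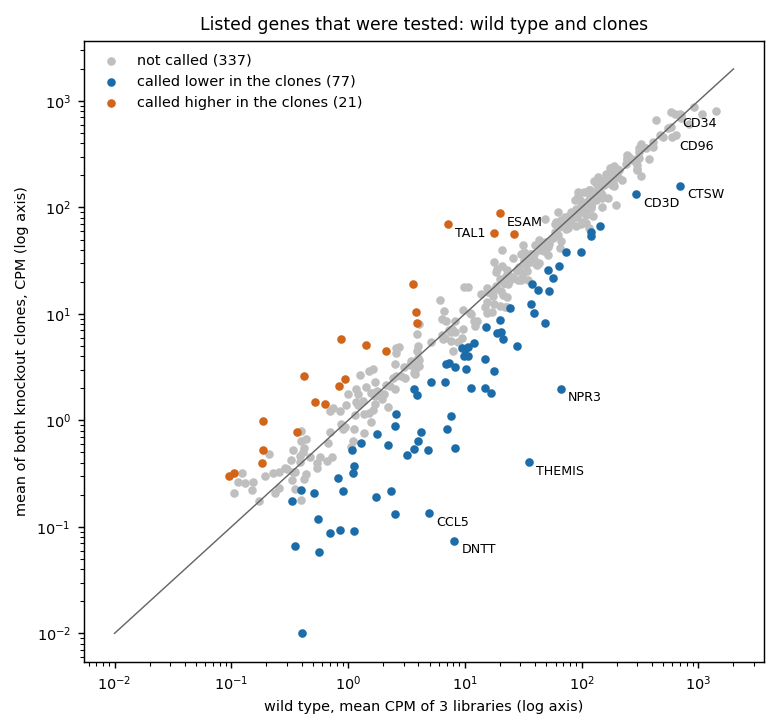
Mean CPM of the 435 listed genes that were tested, in 3 WT libraries (horizontal, log axis) and as the mean of both clones (vertical, log axis), with the line of equality and values under 0.01 drawn at 0.01. Most genes lie along the line, CD34 among them, 77 were called lower in the clones and 21 higher.

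A few RNAs separated the WT libraries from each other. RNA5-8SN2, a 5.8S ribosomal RNA copy, was at 5.64, 5.23 and 143 CPM, so replicate 3 stood alone. The unnamed microRNA-type gene ENSG00000277437 was at 80.7, 244 and 89.4 CPM and ENSG00000264063 at 3.32, 13.9 and 78 CPM. With a merged length of 61 bases, ENSG00000277437 was also among the 25 genes of highest level, at 4610, 14008 and 5063 TPM. RN7SL396P, a copy of 7SL, had 0, 3 and 1299 counts, and MT-CO2 was at 3552, 2856 and 3403 CPM. These 5 have the largest chi-squared between WT libraries relative to counting error among genes at 10 CPM or more, a measure that rises with abundance, and RNA5-8SN2 and RN7SL396P belong to repeated sequences. Listed genes such as LTC4S (17.9, 13.1 and 16.7 CPM) varied more than MT-CO2 in proportion to their mean.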

How the data were processed

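Total RNA of KG-1a cells was sequenced as 2 × 150 base pairs at a commercial provider, per the labels' protocols. The authors aligned pairs with STAR in 2-pass mode to GRCh38, per the series' design text, and deposited counts per gene in 3 countings (without regard to strand, and 1 per strand). STAR's version and annotation are not given in the sources used here. The authors' deposited table of log2 fold changes and p-values (also adjusted) was made with DESeq2, and only its gene symbols (40591 of 60605 identifiers) and its raw counts were read, the latter identical to the unstranded counting of the count files in 9 of 9 libraries. Its 9 normalised columns were not used.

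The reverse-strand counting was used here, as it held 92.0% to 92.3% of stranded counts. Pairs not assigned to a gene stayed out of library totals. TPM used merged exon lengths from GENCODE release 44 (60463 genes matched), which overstate the length of genes with many isoforms. CPM is the count over the library total, with no further scaling. Clones were compared with WT by edgeR 4.0.16 in R 4.3.3 (filterByExpr, TMM, robust quasi-likelihood fit of all 9 libraries, Benjamini-Hochberg adjustment), tested on simulated data, with DESeq2 1.42.0 as an alternative. Standard errors are the absolute log2 difference over the square root of F. Tables and figures used Python 3.11.15, pandas 2.3.3 and matplotlib 3.10.9.

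The members, the 23 lists and the comparisons were chosen with earlier results of these data known. The text names the 25 genes of highest level, up to 6 highest expressed and up to 4 floor genes per list, up to 3 called genes per list with at least 5 CPM in WT, the 10 highest long non-coding RNAs and the 5 genes of largest chi-squared between WT libraries relative to counting error at 10 CPM or more. Other named genes were chosen after their values were seen. Alternatives were other thresholds, lengths, countings, filters, tools and left-out libraries. A gene that is short can reach 1 TPM with few counts: 55 expressed genes were also at the floor. Floors cover counting error only, as reads carried no molecular identifiers. Some genes of the lists are not reported here by name.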

Additional observations from a re-analysis of the deposited data

Results flagged for a closer look

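For 11 of the 33 genes named as called against WT, the difference between clone 2 and clone 1, tested directly in the same edgeR fit, itself passed an adjusted p of 0.05 with an absolute log2 value of at least 1. Their distance from the WT level thus depended on the clone. Clone 2 was higher than clone 1, and so nearer to WT, by 2.33 on the log2 scale for VCAN, 2.11 for JAML, 1.94 for NFIA, 1.91 for ITGB3, 1.73 for THEMIS, 1.72 for CLEC4D, 1.45 for THBS1, 1.31 for IL2RB and 1.15 for SIGLEC6. For DNTT the fitted value was 5.46, which depends on the prior count because clone 1 had 0 counts. IGF1R alone was lower in clone 2, at -1.14. In VCAN the WT libraries were at 18.8, 18.8 and 19.2 CPM, clone 1 at 2.14 to 2.36 CPM and clone 2 at 10.8 to 11.6 CPM.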

How the results depend on the processing

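The number of genes expressed in WT was 18016. It was 22538 without regard to strand, 19978 at 0.5 TPM, 15872 at 2 TPM, 14910 at 1 CPM with no length scaling and 17404 with canonical transcript lengths, a choice added after seeing the data, and 18362 to 18504 with each WT library left out. The share of the 100 most abundant genes was 16.8% among protein-coding genes only, against 17.9%, and 17.8% to 18.0% with each WT library left out. The count of expressed genes of the B cell list moved from 5 to 8 at 0.5 TPM, and the other 43 list counts tried stayed within 1.5 times. The 1349 calls of clones against WT became 830 (258 higher, 572 lower) among genes with at least 1 CPM in 3 libraries, where fewer genes (15908) were tested, 1750 with no filter, 1501 without regard to strand, 1144 with the clones pooled, 1350 with DESeq2 size factors and 1305 in DESeq2. They were 1328 to 1370 with each WT library left out and 1425 to 1465 with each knockout library left out. The highest was without clone 1 replicate 1, in which 13.3% of pairs mapped to several places, close to 1459 without clone 1 replicate 2. Replicate numbers are given in the labels, but same-numbered libraries did not deviate together (correlations of -0.0137 to 0.0122), and a replicate block gave 1349 calls (411 higher, 938 lower). Of 528 values of single named genes under these settings, 522 stayed called and 6, of VCAN, SIGLEC6, THBS1, ROR1 and ITGB3, did not, and 0 changed direction. Depth limits short genes and genes near the floor, where a few counts decide the class.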

Other observations

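Antigen receptor loci, which were looked at after their values were seen, were transcribed unevenly. The immunoglobulin mu constant gene IGHM was at 955, 889 and 945 TPM, rank 99 of all genes, and IGHD at 29.7, 24.2 and 24.5 TPM. All 6 functional heavy chain joining genes were expressed by the TPM rule, with IGHJ4 at 257, 301 and 227 counts, while 9 of 145 immunoglobulin variable genes were. The light chain constant genes were silent, with IGKC at 2, 1 and 6 counts and IGLC1, IGLC2 and IGLC3 at 0 counts in each WT library. IGHM was not called in the clones, where it was at 630.4 to 633 CPM and 688 to 698 CPM against 512, 475 and 512 CPM in WT.

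The T cell receptor constant genes, 6 in number, were all expressed and very unequal. TRBC2 was at 179, 155 and 166 TPM, TRGC1 at 116, 112 and 118 TPM and TRGC2 at 105, 109 and 103 TPM, against 10.5, 13.1 and 12.8 TPM for TRDC, 11.6, 10.1 and 11.3 TPM for TRBC1 and 6.98, 5.74 and 4.23 TPM for TRAC. Paralogous constant genes share sequence, so the split within the beta pair and within the gamma pair is uncertain. Variable genes were sparse, with 8 of 106 expressed. TRDC was called lower in the clones, at 0 to 0.179 CPM and 0.185 to 0.238 CPM against 2.17, 2.69 and 2.67 CPM in WT.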
